A study of Rattus norvegicus with 12 samples.

Results

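The genes described here build the collagen and elastic fibre network outside the cell: collagen chains, elastin, fibrillins, fibulins and fibronectin, and the enzymes that hydroxylate, trim and crosslink them. They were chosen by gene symbol, as every collagen chain on the array together with a named set of fibre proteins and enzymes. The rule found 43 of the 13337 genes with a symbol on the array, read by 45 of its 22523 probes: 9 fibrillar collagens, 6 basement membrane collagens, 10 other collagens, 6 genes of elastic fibres and fibronectin, and 12 crosslinking and modifying enzymes. Fbln2 was in the rule, but no probe carried its symbol. Total RNA came from 2 tumorigenic rat hepatic cell lines given 50 nM rapamycin, an inhibitor of the kinase mTOR, or dimethyl sulfoxide vehicle for 24 h. GN5 is a chemically transformed derivative of WB-F344, a rat liver epithelial line. The H5D line was established from a hepatocellular carcinoma that an azo dye induced in a Fischer rat. The 4 groups were GN5 rapamycin, GN5 vehicle, H5D rapamycin and H5D vehicle, each with RNA from triplicate plates on 3 RatRef-12 BeadChip arrays, and p-values therefore reflect plate-to-plate spread. Both lines were cultured with fetal bovine serum, GN5 in DMEM/F12 and H5D in Waymouth medium, so that line and medium cannot be told apart, and each line stands alone as the model of its kind.

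Collagen chains are made in the endoplasmic reticulum, where prolyl 4-hydroxylases make the triple helix stable at body temperature and lysyl hydroxylases prepare the residues that later carry crosslinks. After secretion, proteinases remove the end propeptides of fibrillar procollagens, and enzymes of the lysyl oxidase family oxidise lysines so that collagen fibrils and elastin become covalently crosslinked. Type IV collagen forms the sheet of basement membranes, whereas elastin is laid down on fibrillin microfibrils. In liver, stellate cells and portal fibroblasts are the main known source of fibrillar collagen in fibrosis.

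Values are normalised log2 signals, and detection of a probe was read array by array, at a detection p-value of at most 0.01. Between 33 and 37.7% of probes were detected per array, and the lowest signal of a detected probe lay between 5.28 and 5.65 on the log2 scale. The median raw signal was 106 and 96.2 in GN5 vehicle replicates 2 and 3, against 74.3 to 82.7 on the other 10 arrays. Of 8 hepatocyte markers measured, Tf was the only one detected on all 3 arrays of any group, and Alb, Afp, Ttr and Hnf4a were not detected on any array. Endothelial markers (0 of 3) and leukocyte markers (0 of 2) were not detected either. Krt7 and Krt8, keratins of biliary and liver epithelial cells, were detected in both lines, and Krt19 in H5D only. Epcam and Cdh1, epithelial markers of the same list, were not detected on any array.

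The 2 lines differed first in which of these genes could be detected at all. Of the 43 genes, 11 were detected on all 12 arrays, 8 on all 6 GN5 arrays and no H5D array, 6 on all 6 H5D arrays and no GN5 array, 5 on some arrays of at least 1 group, and 13 on no array. The 8 genes detected in GN5 alone were the fibrillar collagens Col1a1, Col1a2 and Col3a1, the fibril-associated collagen Col14a1, elastin (Eln), fibrillin 1 (Fbn1), lysyl oxidase (Lox) and the prolyl hydroxylase subunit P4ha3. The 6 detected in H5D alone were Col6a1, Col8a1, Col15a1, Col17a1, fibulin 1 (Fbln1) and the lysyl hydroxylase Plod1. The genes detected on no array were Col2a1, Col5a3, Col4a3, Col4a4, Col4a5, Col6a2, Col6a4, Col7a1, Col9a2, Col13a1, Col23a1, Fbln5 and Loxl4, whose signals ranged between 4.34 and 5.37. The plot of all members by array shows the 3 patterns side by side.

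**Figure D1:**
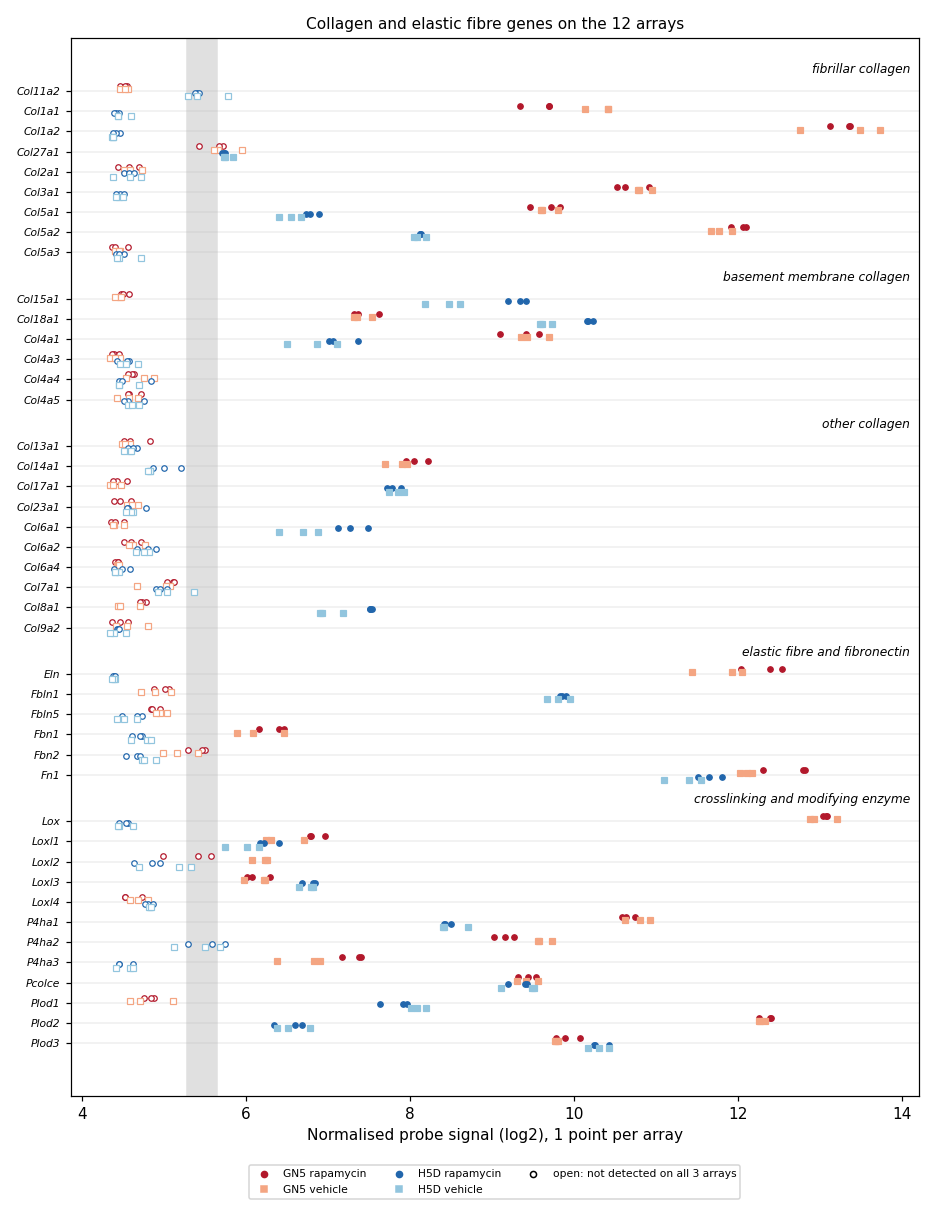
Normalised log2 signal of each of the 43 genes (brightest probe) on the 12 arrays, 1 point per array, grouped by class, with open points where the probe was not detected on all 3 arrays of the group. The grey band spans the lowest signal of a detected probe on each array (5.28 to 5.65), and Col1a2, Lox and Eln lie far to its right in GN5 and to its left in H5D, whereas Fbln1 and Col15a1 do the reverse.

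GN5 cells were set against H5D cells under rapamycin and again under vehicle, to ask how the lines differ with and without the drug. Testing required detection on 3 of 3 arrays in at least 1 of the groups compared. Under rapamycin 25 of 27 tested genes were called at an adjusted p below 0.05 (92.6%), beside 72.2% of all 8288 tested probes. In GN5 16 were higher, beside 38.1% of all probes, and 9 lower, beside 34.1%. Under vehicle 26 of 28 were called (92.9%), beside 63.3% of 8279 probes, with 17 higher (32.3% of all probes) and 9 lower (31.0%). The 2 comparisons share no array, but they use the same 2 lines and were normalised together. The 25 genes called under rapamycin were called in the same direction under vehicle, and the share of all probes that did so was not counted. The 14 genes that lacked detection in 1 line entered the test only through the line where they were high. Their calls, shared direction and lack of overlap therefore add little to the detection pattern. An adjusted p printed beside a bound belongs to the fitted difference and not to the bound. The median difference was 1.66 under rapamycin and 1.26 under vehicle on the log2 scale, against 0.05 and 0.04 for all tested probes. With the 14 genes that lacked detection in 1 line set at their bounds, these medians were 0.99 and 0.96. Groups did not overlap for 25 of 27 genes under rapamycin, beside 74.1% of all probes, and for 26 of 28 under vehicle, beside 67.1%. Among probes detected on every array compared, 11 genes remained in each comparison and 10 of them were called. Beside these stood 4434 of 6581 probes under rapamycin and 3799 of 6530 under vehicle.

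Fibrillar collagens form the tension-bearing fibrils of connective tissue, and 5 of the 6 tested were higher in GN5 under either treatment. Col1a2, the second chain of type I collagen, measured 13.12, 13.36 and 13.35 in GN5 rapamycin and 13.73, 13.49 and 12.75 in GN5 vehicle, against 4.47, 4.42 and 4.38 in H5D rapamycin and 4.38, 4.37 and 4.38 in H5D vehicle. All 6 GN5 arrays were thus high and all 6 H5D arrays were at the level of undetected probes. In RNA from whole plates, fewer expressing cells and less RNA per cell cannot be told apart. Col1a2 was at least 235-fold higher in GN5 under rapamycin (adjusted p = 6.51e-15) and at least 252-fold higher under vehicle (adjusted p = 4.62e-11). The bound compares the GN5 mean with the lowest signal that counted as detected on each H5D array, because a fitted fold against an undetected probe depends on the background. GN5 vehicle replicate 3 lay below the other two vehicle arrays for Col1a2, and the SD of that group (0.512) was the largest of any member in any group where it was detected.

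Col1a1, the other chain of type I collagen, lay between 9.34 and 10.42 on the 6 GN5 arrays and between 4.39 and 4.60 on the 6 H5D arrays. It was at least 18.1-fold higher in GN5 under rapamycin (adjusted p = 6.94e-13) and at least 31.6-fold higher under vehicle (adjusted p = 2.02e-11). Col3a1, the chain of type III collagen that is often found in fibrils with type I, measured 10.52, 10.62 and 10.91 in GN5 rapamycin and 10.79, 10.78 and 10.95 in GN5 vehicle, against 4.42 to 4.51 on the H5D arrays. None of the GN5 values came near an H5D value. The bound for Col3a1 was 39.0-fold under rapamycin (adjusted p = 1.62e-13) and 45.1-fold under vehicle (adjusted p = 6.44e-12).

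The type V chains, which are built into type I fibrils and are known to limit their diameter, were detected in both lines and differed less. Col5a2 averaged 12.03 in GN5 rapamycin and 8.13 in H5D rapamycin, a 14.9-fold difference (log2 3.90, SE 0.0935, adjusted p = 1.89e-12), and 11.79 in GN5 vehicle and 8.11 in H5D vehicle, a 12.8-fold difference. Col5a1 was 7.29-fold higher in GN5 under rapamycin and 8.76-fold higher under vehicle. Col5a2 and Col3a1 lie next to each other on chromosome 9 with 0 protein-coding genes between them, and both were higher in GN5, yet only Col5a2 was detected in H5D. Col27a1 was the fibrillar collagen that did not pass the test in either comparison (log2 difference -0.13, adjusted p = 0.267, under rapamycin and -0.04, adjusted p = 0.798, under vehicle). Its GN5 and H5D arrays overlapped, and it was detected on 2 of 3 arrays in each GN5 group and 3 of 3 in each H5D group. Col11a2 was detected on 0 GN5 arrays and on 1 of 3 H5D rapamycin and 2 of 3 H5D vehicle arrays, so it was not tested.

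The promoters of 3 collagens with opposite line patterns are shown because these genes were detected in opposite lines: Col1a2, detected in GN5 alone, and Col17a1 and Col15a1, detected in H5D alone. The sequences are those of RefSeq on the GRCr8 build, from 250 bases before to 50 bases after the annotated start, each on its gene's strand from 5′ to 3′. Capitals mark the CCAAT box (CCAAT, or ATTGG where it lies on the other strand) and the TATA box (TATAAA or TTTATA). Col1a2 lies on the plus strand at chr4:33518307-33518606, Col17a1 on the minus strand at chr1:256518808-256519107, and Col15a1 on the plus strand at chr5:66297296-66297595.
Col1a2: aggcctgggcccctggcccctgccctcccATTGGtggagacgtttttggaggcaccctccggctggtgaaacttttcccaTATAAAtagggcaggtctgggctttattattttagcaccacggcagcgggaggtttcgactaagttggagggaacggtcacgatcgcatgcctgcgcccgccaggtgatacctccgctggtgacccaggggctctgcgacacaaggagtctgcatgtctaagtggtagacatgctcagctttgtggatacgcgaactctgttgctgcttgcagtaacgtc
Col17a1: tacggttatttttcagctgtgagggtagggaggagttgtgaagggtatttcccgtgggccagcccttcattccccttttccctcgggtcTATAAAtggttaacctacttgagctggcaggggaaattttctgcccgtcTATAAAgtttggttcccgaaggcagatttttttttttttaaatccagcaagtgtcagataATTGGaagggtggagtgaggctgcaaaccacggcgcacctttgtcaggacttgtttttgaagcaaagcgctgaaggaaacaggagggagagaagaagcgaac
Col15a1: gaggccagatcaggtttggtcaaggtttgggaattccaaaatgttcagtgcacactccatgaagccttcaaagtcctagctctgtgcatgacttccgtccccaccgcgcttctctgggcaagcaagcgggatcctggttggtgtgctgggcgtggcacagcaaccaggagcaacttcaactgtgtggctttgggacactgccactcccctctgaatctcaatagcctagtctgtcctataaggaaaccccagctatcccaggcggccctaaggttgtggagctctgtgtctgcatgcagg

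Col1a2 and Col17a1 both held a CCAAT box and at least 1 TATA box although the lines in which they were detected were opposite, and Col15a1 held neither. Both motifs together stood in 5.75% of all 27457 promoters of the table and in 2 of the 33 members with an entry, the 2 just named. The CCAAT box alone was in 37.7% of all promoters and in 7 of the 33, and TATAAA in 14.3% and in 3 of the 33. The GC box (GGGCGG, or CCGCCC on the other strand, whose last letters a CCAAT box can share) was in 34.9% of all promoters and in 20 of the 33. By line, the GC box stood in 6 of 10 promoters of genes higher in GN5 vehicle and in 4 of 8 of genes lower there. Col1a1, Col2a1, Col3a1, Col6a2, Col14a1, Eln, Fbln1, Fn1, Lox and Loxl2 had no entry. A match states which letters are present and nothing about a factor.

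The other collagens split by line. Col14a1, which binds the surface of fibrils, measured 7.95, 8.05 and 8.22 in GN5 rapamycin and 7.91, 7.70 and 7.96 in GN5 vehicle, against 4.81 to 5.21 on the H5D arrays, and was at least 6.38-fold higher in GN5 under rapamycin and at least 5.70-fold under vehicle (adjusted p = 1.19e-10 and 1.36e-09). In the opposite direction, Col17a1, a transmembrane collagen of epithelial hemidesmosomes, lay between 4.34 and 4.55 on the GN5 arrays and measured 7.78, 7.72 and 7.89 in H5D rapamycin and 7.86, 7.75 and 7.93 in H5D vehicle. It was thus high on every H5D array and on no GN5 array, at least 4.73-fold lower in GN5 under rapamycin and at least 4.92-fold lower under vehicle (adjusted p = 1.01e-11 and 3.85e-10).

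Col6a1, a chain of the beaded filaments of type VI collagen, lay between 4.36 and 4.52 on the GN5 arrays and was at least 3.34-fold lower there than in H5D under rapamycin and at least 2.17-fold lower under vehicle (adjusted p = 1.58e-10 and 8.49e-08). Its neighbour on chromosome 20, Col6a2, which encodes a second chain of the same filament, was not detected in either line, and the 2 genes have 0 protein-coding genes between them. Col8a1, a short network-forming collagen, lay between 4.44 and 4.78 on the GN5 arrays and was at least 3.90-fold lower there under rapamycin and at least 2.74-fold lower under vehicle (adjusted p = 2.41e-11 and 1.99e-08). The H5D values of both genes are given with the rapamycin response of that line.

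Basement membrane collagens did not move as 1 group between the lines. Col4a1, a chain of the most widespread type IV network, was higher in GN5: it averaged 9.37 in GN5 rapamycin and 7.15 in H5D rapamycin (4.65-fold, adjusted p = 1.57e-08), and 9.50 in GN5 vehicle and 6.83 in H5D vehicle (6.37-fold, adjusted p = 8.93e-08). Col15a1 and Col18a1, a pair of related collagens that carry an endostatin-like end domain and sit at basement membrane zones, were lower in GN5. Col18a1 averaged 7.44 in GN5 rapamycin and 10.19 in H5D rapamycin, 6.73-fold lower in GN5, and 7.41 in GN5 vehicle and 9.65 in H5D vehicle, 4.73-fold lower. Col15a1 lay between 4.41 and 4.58 on the GN5 arrays, at least 13.6-fold below H5D under rapamycin and at least 7.35-fold below under vehicle (adjusted p = 4.00e-13 and 4.89e-10). Of the remaining type IV chains, Col4a3, Col4a4 and Col4a5 were not detected.

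Of the elastic fibre genes, Eln and Fbn1 were detected in GN5 alone and Fbln1 in H5D alone. Eln, the elastic core protein, measured 12.03, 12.53 and 12.39 in GN5 rapamycin and 12.05, 11.93 and 11.44 in GN5 vehicle, against 4.37 to 4.41 on the 6 H5D arrays. The H5D arrays were flat at the undetected level, and Eln was at least 121-fold higher in GN5 under rapamycin and at least 88.1-fold under vehicle (adjusted p = 5.49e-14 and 2.02e-11). Fbn1, the main protein of microfibrils, measured 6.16, 6.41 and 6.47 in GN5 rapamycin and 5.89, 6.09 and 6.46 in GN5 vehicle, against 4.60 to 4.84 on the H5D arrays. It lay only a little above the detection limit in GN5, so its bounds were 1.93-fold under rapamycin and 1.75-fold under vehicle (adjusted p = 2.12e-08 and 1.16e-05). Fbn2 had 2 probes, of which 1 was detected on 1 GN5 vehicle array and the other on none, and it was not tested.

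Fbln1, which binds fibronectin and elastic fibres, lay between 4.72 and 5.09 on the GN5 arrays and measured 9.85, 9.90 and 9.83 in H5D rapamycin and 9.95, 9.67 and 9.81 in H5D vehicle. The 6 H5D arrays kept within a narrow range far above every GN5 array, and Fbln1 was at least 19.7-fold lower in GN5 under rapamycin and at least 19.2-fold lower under vehicle (adjusted p = 2.81e-13 and 1.02e-10). Fn1, fibronectin, was detected everywhere and differed little by comparison: GN5 was 1.98-fold higher under rapamycin (log2 0.99, SE 0.139, adjusted p = 3.97e-05) and 1.68-fold higher under vehicle (log2 0.75, SE 0.13, adjusted p = 0.000454).

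Among the enzymes, a lysyl oxidase, 3 prolyl hydroxylase subunits and a lysyl hydroxylase were much higher in GN5. Lox, which starts crosslinking of collagen and elastin, measured 13.03, 13.09 and 13.07 in GN5 rapamycin and 13.21, 12.92 and 12.88 in GN5 vehicle, against 4.44 to 4.63 on the H5D arrays. Plod2, which hydroxylates lysines in the telopeptides, measured 12.40, 12.39 and 12.25 in GN5 rapamycin and 12.33, 12.27 and 12.26 in GN5 vehicle, against 6.68, 6.35 and 6.60 in H5D rapamycin and 6.38, 6.78 and 6.51 in H5D vehicle. Lox was at the undetected level in H5D, whereas Plod2 was detected on every array of both lines. Lox was at least 203-fold higher in GN5 under rapamycin and at least 202-fold under vehicle (adjusted p = 6.51e-15 and 2.81e-12). For Plod2 the difference was 55.7-fold under rapamycin (log2 5.80, SE 0.109) and 53.0-fold under vehicle (log2 5.73, SE 0.122).

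The catalytic subunits of prolyl 4-hydroxylase were all higher in GN5. P4ha2 lay between 9.03 and 9.73 on the GN5 arrays and between 5.12 and 5.75 on the H5D arrays, where it was detected on 2 of 3 arrays of each group, a 12.2-fold difference under rapamycin and 18.2-fold under vehicle (adjusted p = 4.62e-11 and 9.47e-10). P4ha1 was 4.60-fold higher in GN5 under rapamycin and 4.84-fold higher under vehicle. P4ha3 lay between 6.38 and 7.40 in GN5 and between 4.42 and 4.63 in H5D, at least 3.78-fold higher in GN5 under rapamycin and at least 2.57-fold higher under vehicle (adjusted p = 9.31e-11 and 2.56e-07).

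The lysyl hydroxylases did not move together. Plod1, which acts on lysines in the helix, measured 4.88, 4.85 and 4.76 in GN5 rapamycin and 4.71, 4.59 and 5.11 in GN5 vehicle, against 7.64, 7.92 and 7.96 in H5D rapamycin and 8.09, 8.01 and 8.20 in H5D vehicle. Every GN5 array thus lay below every H5D array, the reverse of Plod2. Plod1 was at least 4.86-fold lower in GN5 under rapamycin and at least 5.88-fold lower under vehicle (adjusted p = 7.06e-11 and 5.61e-09). Plod3, which also adds sugars to hydroxylysine, was 1.32-fold lower in GN5 under rapamycin and 1.43-fold lower under vehicle (adjusted p = 0.00476 and 0.00172). The vehicle call of Plod3 was lost when arrays were scaled to a common median (log2 -0.37, adjusted p = 0.0626).

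The remaining lysyl oxidase family members differed by small amounts. Loxl3 was 1.58-fold lower in GN5 under rapamycin and 1.52-fold lower under vehicle (adjusted p = 0.000105 and 0.000877). Loxl1, tied in mice to elastic fibre renewal, was 1.49-fold higher in GN5 under rapamycin and 1.36-fold higher under vehicle by its brighter probe (adjusted p = 0.000274 and 0.0251), but its second probe was not called (log2 -0.06, adjusted p = 0.708, under rapamycin and 0.30, adjusted p = 0.153, under vehicle). The 2 probes differed in direction under rapamycin, whereas under vehicle both were positive. When arrays were scaled to a common median, the brighter one was called neither under rapamycin (log2 0.29, adjusted p = 0.0721) nor under vehicle (0.41, adjusted p = 0.0674). Its vehicle call was also lost with no filter on dim probes (adjusted p = 0.0781), by the methods' t-test after adjustment (0.0871), without GN5 vehicle replicates 2 and 3 together (0.212), and without H5D vehicle replicate 1, H5D vehicle replicate 2 or GN5 vehicle replicate 2 alone, with log2 values over single leave-outs between 0.30 and 0.54. Loxl2, known to crosslink type IV collagen, was 2.17-fold higher in GN5 under vehicle (log2 1.12, adjusted p = 0.000101) and was not tested under rapamycin, where neither line had it on all 3 arrays. It was detected on 1 of 3 H5D vehicle arrays, so the vehicle fold depends on the background. Pcolce, which speeds removal of the procollagen end propeptide, did not pass the test (log2 0.09, adjusted p = 0.471, under rapamycin and 0.06, adjusted p = 0.736, under vehicle).

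**Figure D2:**
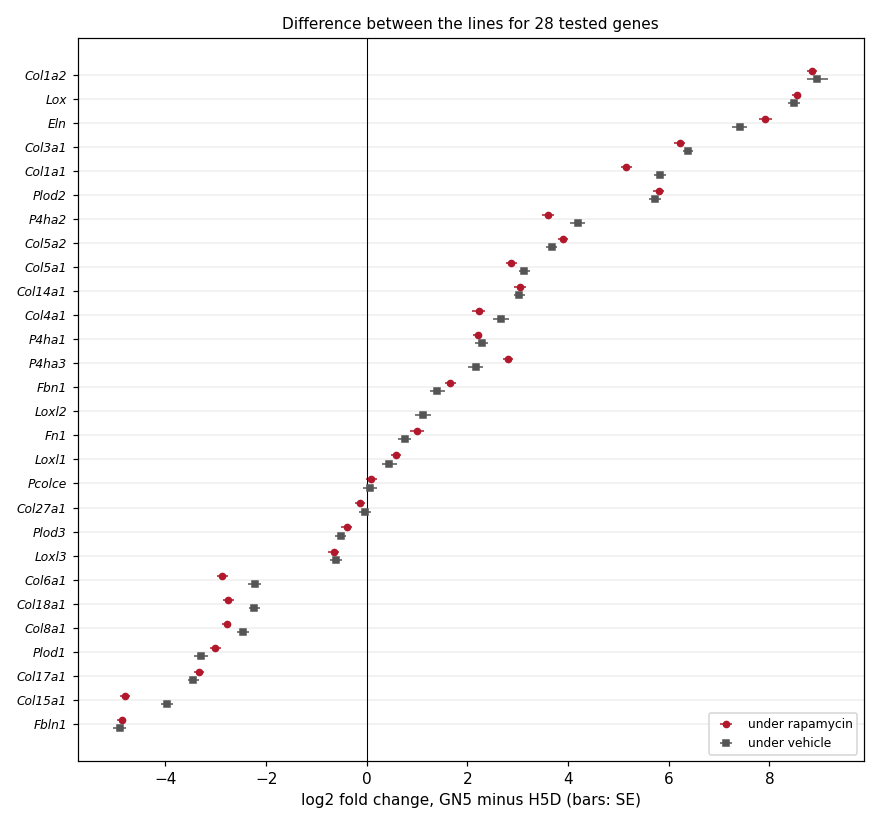
Fitted log2 fold change of GN5 minus H5D for the 28 tested genes, with red circles under rapamycin, grey squares under vehicle and bars for the SE; Loxl2 was tested under vehicle only. For genes undetected in 1 line the fitted value is not a fold but goes with the bounds in the text, and the order runs between Col1a2 (8.85 under rapamycin and 8.95 under vehicle) and Fbln1 (-4.87 and -4.91).

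Markers of matrix-producing and other liver cells were read beside these differences. Of 8 fibroblast and stellate markers measured, 4 were detected on all 3 arrays of each GN5 group and 3 in each H5D group. Vim and S100a4 were detected in both lines, Dcn and Lum, small proteoglycans that bind collagen fibrils, in GN5 only, and Pdgfra in H5D only, while Thy1 and Postn were not detected and Des was detected on 1 GN5 vehicle array. The summed linear signal of the list ran between 10100 and 10500 in GN5 rapamycin and between 14900 and 15500 in H5D rapamycin, and between 11100 and 12500 in GN5 vehicle and between 13200 and 15600 in H5D vehicle. The sum of the biliary and progenitor list was 7070 to 7630 in GN5 rapamycin and 20400 to 22000 in H5D rapamycin, and 8560 to 8950 in GN5 vehicle and 17200 to 18500 in H5D vehicle. That of the hepatocyte list was 395 to 462 in GN5 rapamycin and 3600 to 4730 in H5D rapamycin, and 343 to 398 in GN5 vehicle and 2730 to 3040 in H5D vehicle. The fibroblast, biliary and hepatocyte sums were each lower on every GN5 array than on every H5D array of the same treatment. The hepatocyte sum rests on Tf. In the biliary list Spp1 averaged 5.82 in GN5 vehicle and 13.4 in H5D vehicle, and Krt7 and Krt19 were also higher in H5D. Krt8 ran the other way under vehicle, 13.03 in GN5 and 12.32 in H5D, and was level under rapamycin (12.74 and 12.75). The fibroblast sum rests mostly on Vim and S100a4, whereas Dcn and Lum were higher in GN5. The part of these markers in the collagen difference was not tested.

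Genes that serve collagen and elastic fibres without being in the rule were read as 4 further lists, beside the same shares of all probes as the members (38.1% higher and 34.1% lower in GN5 under rapamycin, 32.3% and 31.0% under vehicle). Of the partners for collagen folding, secretion and processing, 14 of 17 genes on the array were tested, with 9 higher and 2 lower in GN5 in each comparison and medians of 0.62 under rapamycin and 0.76 under vehicle. Sparc, a collagen-binding secreted protein, was 24.7-fold higher in GN5 under rapamycin and 24.3-fold under vehicle, and Adamts2, the proteinase that cuts the amino propeptide, at least 5.53-fold and at least 5.70-fold. P3h2, a prolyl hydroxylase that acts on type IV collagen, ran the other way, at least 4.15-fold and at least 3.85-fold lower in GN5. The 5 tested microfibril partners were all higher in GN5 under both treatments (5 of 10 on the array). Ltbp2 was at least 94.3-fold higher under rapamycin and at least 47.5-fold under vehicle, Ltbp1, which stores latent TGF-beta in the matrix, 26.4-fold and 32.7-fold, and Ltbp4, needed in mice for elastic fibre assembly, 19.5-fold and 16.3-fold. Ltbp1 was detected on 1 of 3 H5D vehicle arrays (mean 5.33), so its vehicle fold depends on the background.

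The receptors were mixed. Of those for collagen and fibronectin, 2 were higher and 2 lower in GN5 of 4 tested under rapamycin, and 2 higher and 3 lower of 5 tested under vehicle. Itga1, the alpha chain of a collagen-binding integrin, was 3.79-fold lower in GN5 under rapamycin and 5.15-fold lower under vehicle, Itga5, the fibronectin receptor chain, 2.07-fold and 2.15-fold lower, and Itga2 at least 1.23-fold lower under vehicle. Itga5 was detected on 1 of 3 arrays of each GN5 group, so its folds depend on the background. Ddr1 (1.68-fold and 1.61-fold) and Itgb1 (1.27-fold under each) were higher in GN5. Of 3 tested basement membrane partners, Agrn was higher in GN5 (2.04-fold and 2.16-fold) and the other 2, Lamb2 and Lamc1, did not pass the test.

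In GN5, rapamycin changed 5 of these genes, in both directions: the type I collagen chain Col1a1, Loxl2 and P4ha2 fell, and Fn1 and P4ha3 rose. Of 21 genes tested, 5 were called (23.8%), beside 6.91% of all 7449 tested probes, with 2 higher, beside 3.45% of all probes, and 3 lower, beside 3.46%. The median log2 change was 0.03, against 0.01 for all probes, and the members ranged between -0.86 and 0.61. Groups did not overlap for 6 of the 21 genes (28.6%), beside 27.8% of all probes. No called change reached 2-fold.

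Col1a1 fell: it measured 9.34, 9.69 and 9.69 in GN5 rapamycin, against 10.14, 10.41 and 10.42 in GN5 vehicle. Every rapamycin array lay below every vehicle array, and the change was 1.68-fold (log2 -0.75, SE 0.124, adjusted p = 0.0046). Its partner chain Col1a2 did not pass the test (log2 -0.05, SE 0.201, adjusted p = 0.917), with the 3 rapamycin arrays inside the range of the 3 vehicle arrays. The other fibrillar collagens tested were Col3a1 (-0.15), Col5a1 (0.00) and Col5a2 (0.24, adjusted p = 0.194), none of them called. Beside the fall of Col1a1, the summed signal of the fibroblast and stellate list was 10100 to 10500 in GN5 rapamycin and 11100 to 12500 in GN5 vehicle. Within that list Dcn averaged 8.81 in GN5 rapamycin and 9.48 in GN5 vehicle, and Lum 6.27 in GN5 rapamycin and 6.98 in GN5 vehicle, on the log2 scale. The biliary and progenitor sum was 7070 to 7630 in GN5 rapamycin and 8560 to 8950 in GN5 vehicle. The hepatocyte sum, which rests on Tf, was 395 to 462 in GN5 rapamycin and 343 to 398 in GN5 vehicle. The part of these markers in the result was not tested.

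Fn1 was higher under rapamycin. It measured 12.31, 12.79 and 12.82 in GN5 rapamycin, against 12.11, 12.17 and 12.02 in GN5 vehicle, so that rapamycin replicate 1 lay closest to the vehicle arrays without overlapping them. The rise was 1.45-fold (log2 0.54, SE 0.134, adjusted p = 0.0375). Eln did not pass the test at a change of similar size (log2 0.51, SE 0.166, adjusted p = 0.087), and its groups overlapped, with vehicle replicate 1 (12.05) above rapamycin replicate 1 (12.03). Fbn1 changed by 0.20 on the log2 scale (adjusted p = 0.447).

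The enzymes gave 3 of the 5 calls. Loxl2 measured 4.99, 5.58 and 5.42 in GN5 rapamycin, against 6.26, 6.23 and 6.08 in GN5 vehicle, and was detected on 1 of 3 rapamycin arrays and on 3 of 3 vehicle arrays. It was 1.81-fold lower under rapamycin (log2 -0.86, SE 0.14, adjusted p = 0.00416). These signals lay near the detection limit, and the size of the change depended on the background: without background correction the change was -0.43 (adjusted p = 0.00802) and with a larger offset -0.52 (adjusted p = 0.00418). P4ha2 measured 9.16, 9.27 and 9.03 in GN5 rapamycin, against 9.58, 9.73 and 9.56 in GN5 vehicle, and fell 1.39-fold (log2 -0.47, SE 0.102, adjusted p = 0.02). P4ha3, a related catalytic subunit, moved the opposite way, with 7.17, 7.38 and 7.40 in GN5 rapamycin, against 6.91, 6.38 and 6.83 in GN5 vehicle (1.53-fold higher, log2 0.61, SE 0.138, adjusted p = 0.0232). In both cases the groups did not overlap.

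The main subunit P4ha1 changed by -0.13 (SE 0.107, adjusted p = 0.484) and Lox by 0.06 (SE 0.108, adjusted p = 0.788). Plod2 (0.06), Plod3 (0.13), Loxl3 (-0.02) and Pcolce (0.01) were not called. Loxl1 was higher on every rapamycin array by its brighter probe, 6.96, 6.79 and 6.78 in GN5 rapamycin against 6.31, 6.71 and 6.25 in GN5 vehicle, but was not called (log2 0.42, adjusted p = 0.0728), and its second probe changed by -0.03. Col4a1 (-0.13), Col18a1 (0.03) and Col14a1 (0.22) were not called.

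The calls differed in how far they rested on single arrays. Col1a1 and Loxl2 were called with any 1 of the 6 arrays left out (log2 between -0.84 and -0.63 for Col1a1 and between -0.98 and -0.69 for Loxl2). Fn1 was not called without vehicle replicate 2 (adjusted p = 0.106), vehicle replicate 3 (0.0751), rapamycin replicate 2 (0.143) or rapamycin replicate 3 (0.149), P4ha2 without vehicle replicate 2 (0.0981), rapamycin replicate 1 (0.0615) or rapamycin replicate 3 (0.0976), and P4ha3 without vehicle replicate 2 (0.0833), rapamycin replicate 2 (0.0928) or rapamycin replicate 3 (0.0976). Loxl2 entered the test through the vehicle group alone, and the leave-out fits kept the probes chosen on all 6 arrays. With detection required on every array it was not tested, so its call is tied to the filter. Without the 2 brighter arrays, vehicle replicates 2 and 3, only 1 vehicle array remained. The log2 change was then -0.93 for Loxl2 and -0.57 for Col1a1. Scaling to a common median moved Fn1 to 0.31 (adjusted p = 0.2). By the methods' t-test after adjustment, neither Fn1 (adjusted p = 0.0682) nor P4ha3 (0.0589) was called. With no filter on dim probes limma did not call Fn1 (0.148), P4ha2 (0.0571) or P4ha3 (0.121). With all 12 arrays in 1 limma fit P4ha2 was not called (0.061).

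**Figure D3:**
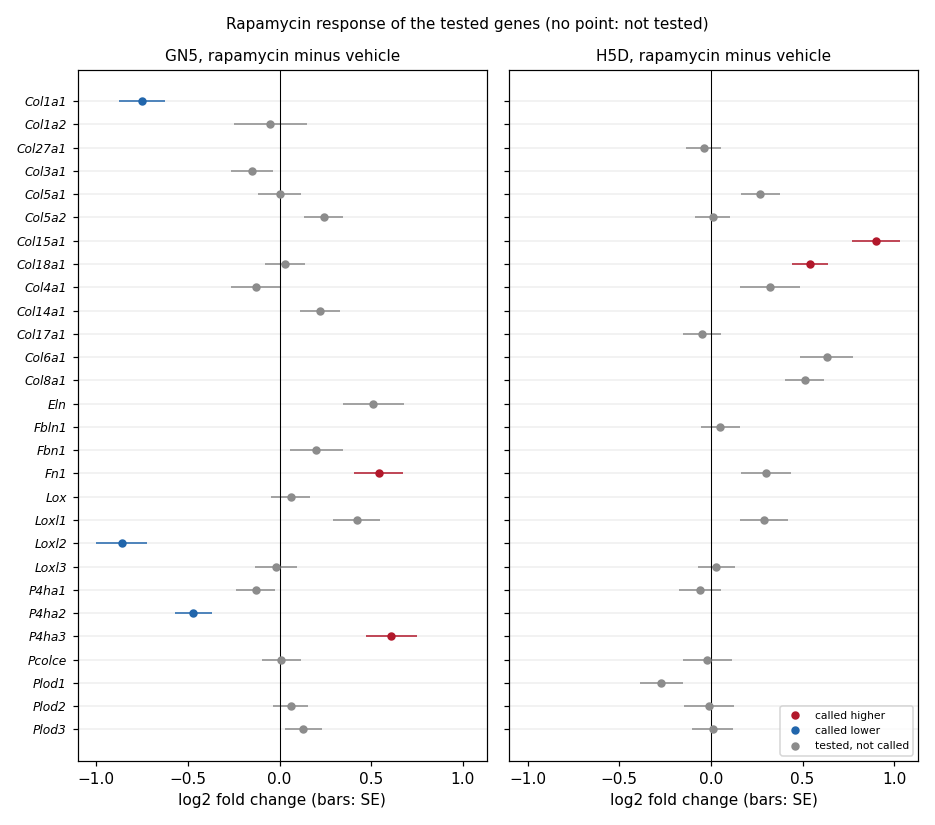
Log2 fold change of rapamycin minus vehicle with its SE for each tested gene in GN5 (left) and H5D (right), red where called higher, blue where called lower and grey where tested but not called. GN5 had 2 higher and 3 lower of 21 tested, and H5D 2 higher and 0 lower of 18 tested. Of the called genes, only Fn1 and Col18a1 were tested in both lines.

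The partners of these genes moved upward in GN5 where they were called, beside 3.45% of all probes called higher and 3.46% called lower. Ltbp2 and Ltbp4, of 5 tested microfibril partners, rose 2.06-fold (log2 1.05, adjusted p = 0.00295) and 1.51-fold (log2 0.59, adjusted p = 0.00438), and none fell. Ltbp2 measured 11.66, 12.05 and 12.17 in GN5 rapamycin, against 11.08, 11.07 and 10.59 in GN5 vehicle. Of 13 tested partners of collagen folding and processing, P3h3 rose 1.48-fold (adjusted p = 0.0101) and 12 were not called, among them the collagen chaperone Serpinh1 (log2 -0.43, adjusted p = 0.0567). Lamc1, a laminin chain, rose 1.42-fold among 3 tested basement membrane partners, and the collagen receptors Itga1 (1.57-fold) and Ddr1 (1.38-fold) rose among 3 tested receptors. The medians of these lists were 0.32, -0.03, 0.20 and 0.46.

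In H5D, rapamycin raised 2 of 18 tested genes (11.1%), beside 0.317% of all 7895 tested probes called higher and 0.722% called in either direction. It lowered 0 by limma's adjusted p, beside 0.405% of all probes, with 1 lower gene, Plod1, at an unadjusted p under 0.05 (7.89% of all probes) and 0 by the methods' t-test. Both raised genes encode the basement membrane zone collagens with endostatin-like domains. Col15a1 measured 9.42, 9.34 and 9.20 in H5D rapamycin, against 8.61, 8.18 and 8.48 in H5D vehicle, and rose 1.86-fold (log2 0.90, SE 0.13, adjusted p = 0.0197). Col18a1 measured 10.23, 10.16 and 10.17 in H5D rapamycin, against 9.61, 9.59 and 9.73 in H5D vehicle, and rose 1.45-fold (log2 0.54, SE 0.0969, adjusted p = 0.0442). Neither gene's groups overlapped. Col4a1, the third basement membrane collagen tested, changed by 0.32 (SE 0.164, adjusted p = 0.359).

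A pair of the other collagens lay just outside the threshold. Col6a1 measured 7.12, 7.27 and 7.49 in H5D rapamycin, against 6.70, 6.88 and 6.40 in H5D vehicle (log2 0.63, SE 0.146, adjusted p = 0.0852). Col8a1 measured 7.54, 7.51 and 7.51 in H5D rapamycin, against 6.93, 7.18 and 6.90 in H5D vehicle (log2 0.51, SE 0.108, adjusted p = 0.0726). For both genes all rapamycin arrays lay above all vehicle arrays, but limma called neither change. By the methods' t-test after adjustment Col8a1 was called (adjusted p = 0.0365) and Col6a1 was not (0.0689). Groups did not overlap for 7 of the 18 genes (38.9%), 6 with rapamycin above and Plod1 with rapamycin below, beside 23.1% of all probes. Beyond Col15a1, Col18a1, Col6a1 and Col8a1, these were Col5a1 (0.27, adjusted p = 0.264), the brighter probe of Loxl1 (0.29, adjusted p = 0.302) and Plod1 (-0.27, adjusted p = 0.292).

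Collagens and enzymes without a call in H5D included Fbln1 (0.05), Fn1 (0.30, adjusted p = 0.303), Col5a2 (0.01), Col17a1 (-0.05), Col27a1 (-0.04), Loxl3 (0.03), P4ha1 (-0.06), Pcolce (-0.02), Plod2 (-0.01) and Plod3 (0.01). The median log2 change of the 18 genes was 0.04, against -0.01 for all probes. Of the 4 partner lists, with 13, 2, 3 and 5 genes tested, limma called 0 genes in either direction at the adjusted threshold, while 2, 2, 3 and 2 genes had an unadjusted p under 0.05, beside 16.7% of all probes. The largest partner change was that of the laminin chain Lamb2 (0.72, adjusted p = 0.16). Beside these results, the summed signal of the biliary and progenitor markers was 20400 to 22000 in H5D rapamycin and 17200 to 18500 in H5D vehicle and that of the hepatocyte list, which rests on Tf, was 3600 to 4730 in H5D rapamycin and 2730 to 3040 in H5D vehicle. Their part in the result was not tested.

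The H5D calls were close to the threshold. Col15a1 was not called without H5D vehicle replicate 1 (adjusted p = 0.0566), rapamycin replicate 1 (0.106), rapamycin replicate 2 (0.165) or rapamycin replicate 3 (0.0525), with log2 values between 0.77 and 0.99, and Col18a1 was not called with any 1 of the 6 arrays left out (adjusted p between 0.0772 and 0.255, log2 between 0.51 and 0.58). With all 12 arrays in 1 fit Col15a1 (adjusted p = 0.000576), Col18a1 (0.00956), Col6a1 (0.0133) and Col8a1 (0.0133) were all called.

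**Figure D4:**
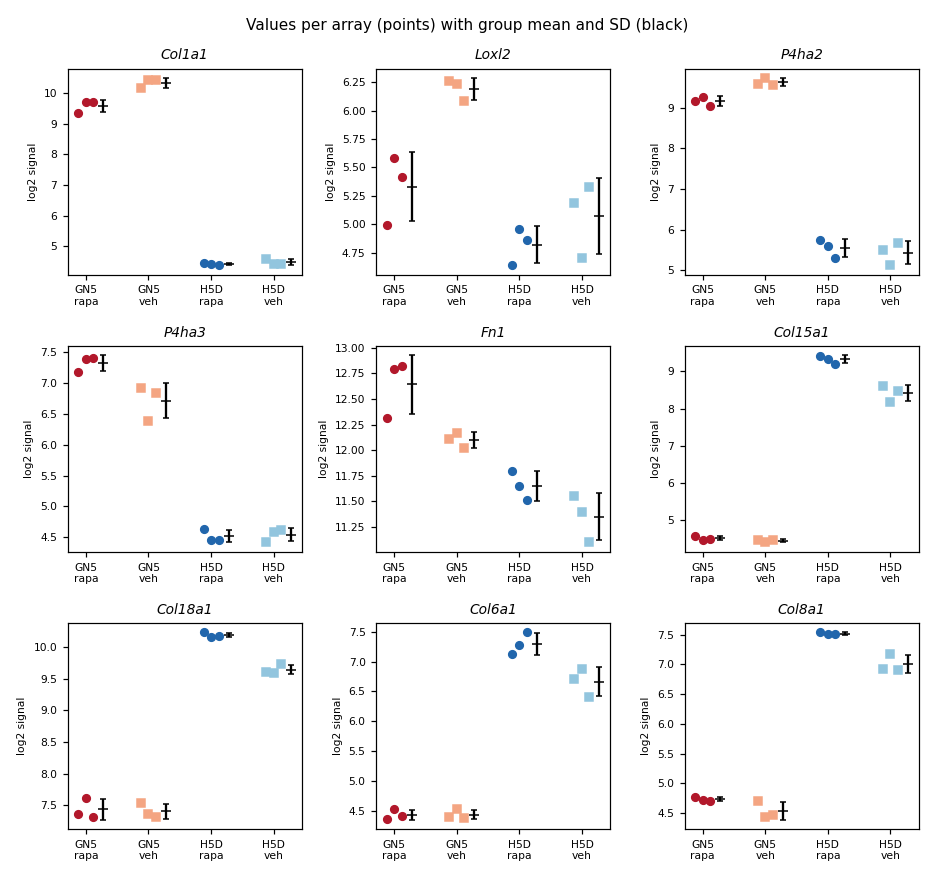
Normalised log2 signal on each array (points) with the group mean and SD (black) for the 5 genes called in GN5, the 2 called in H5D, and Col6a1 and Col8a1; vertical axes differ between panels and do not start at 0. Col1a1, Loxl2 and P4ha2 sit lower in GN5 rapamycin than in GN5 vehicle, and Col15a1 and Col18a1 sit higher in H5D rapamycin than in H5D vehicle, with no overlap between the 3 arrays of each pair of groups.

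The responses of the 2 lines were compared directly, as the change in GN5 minus the change in H5D over all 12 arrays. Of 28 genes tested, 1 was called (3.57%), beside 1.41% of all 8539 tested probes. It was called lower, beside 0.668% of all probes, and 0 genes were called higher, beside 0.738%. That gene was Col15a1, with a difference of -0.83 on the log2 scale (SE 0.156, adjusted p = 0.0148). It was not detected on any GN5 array, so the difference sets the rise in H5D against a probe with no measurable level in GN5. Col1a1, called in GN5 alone, had a difference of -0.68 (SE 0.161, adjusted p = 0.0541) and was not detected on any H5D array. Both genes could be read in only 1 of the lines.

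No difference of response was called for the other 27 tested genes. Col18a1, which rose in H5D and changed by 0.03 in GN5, had a difference of -0.51 (SE 0.144, adjusted p = 0.108). Fn1, which rose in GN5, also had a positive value in H5D, and the difference was 0.23 (SE 0.204, adjusted p = 0.664). For P4ha2 and P4ha3 the differences were -0.59 (adjusted p = 0.183) and 0.64 (adjusted p = 0.113), and for Loxl2 -0.61 (adjusted p = 0.245). P4ha3 was not detected on any H5D array and Loxl2 on 1 of the 6. In all, 11 genes were tested for rapamycin in both lines and 0 were called in both. Over all tested probes, 6.91% were called in GN5 and 0.722% in H5D, and the share called in both was not counted. Of the called genes only Fn1 and Col18a1 were among the 11, so this count cannot show whether the lines respond differently. At an unadjusted p under 0.05 there were 9 of the 28 genes, beside 14.5% of all probes, and Col15a1 alone of these passed the adjustment. The call of Col15a1 was lost without H5D rapamycin replicate 2 (adjusted p = 0.0528).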

How the data were processed

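The deposited bead table held each probe's scanner signal as a linear intensity, neither background subtracted nor normalised by the authors, and gave each of them a detection p-value. A second deposited table held intensity values of the same arrays that the authors had quantile normalised with BeadStudio, for which the sources used here give no version, and analysed in Partek 6.3, per the submitters' processing notes. That table is linear, its ranks match the raw signal, and it served as an alternative. All sample columns were used.

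The neqc function of limma 3.58.1 (R 4.3.3) subtracted background from the intensities by its normal-exponential fit, added an offset of 16, quantile normalised the 12 arrays together and took log2. Of 22523 probes, 13793 had 1 gene symbol and 8730 none, and 13752 matched a RefSeq gene table of GRCr8 by Entrez identifier. That table gave names and neighbours only, and promoters came from a RefSeq table of the same build. A probe was tested if detected (p-value at most 0.01) on all 3 arrays of at least 1 group compared. Linear models (lmFit and eBayes, two-sided) were fitted on all tested probes of the arrays compared, or of all 12 arrays for the difference between lines, with Benjamini-Hochberg adjustment over all of them, and called below 0.05. SE comes from these models and SD from the 3 arrays. Of several probes of a gene the brightest stands for it. A gene undetected on the 3 arrays of its dimmer group has a bound ("at least"): the brighter group's mean log2 value was set against a floor in the dimmer group, averaged over its arrays, which on each array was either the lowest detected value or the probe's own, whichever was larger. The adjusted p-value given with a bound is that of the fitted difference. The script was tested on simulated data with known changes.

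The members and lists were chosen with earlier results of these data known. All members are accounted for, every called member is named, and array values are given for members detected in 1 line and up to 8 called members per comparison. Of each other list up to 3 called genes are named, except the receptors, of which all called genes are named. Promoter motifs and the genes whose promoters are printed were chosen after the values were seen. The number of arrays, 3 per group, limits the precision.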

Additional observations from a re-analysis of the deposited data

Results flagged for a closer look

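A difference between the lines in their response to rapamycin passed the test for Col15a1 and for Ltbp2, a latent TGF-beta binding protein of microfibrils. For Col15a1 the change in GN5 minus the change in H5D was -0.83 on the log2 scale (SE 0.156, adjusted p = 0.0148, limma, 12 arrays), with all 3 H5D rapamycin arrays above all 3 H5D vehicle arrays and no GN5 array detected. For Ltbp2 the difference was 0.97 (SE 0.206, adjusted p = 0.0304), with all 3 GN5 rapamycin arrays above all 3 GN5 vehicle arrays and no H5D array detected.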

How the results depend on the processing

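No gene changed direction under an alternative while it was called. Taking array signal over background as the limit, 14 line differences are bounds, and Loxl2, Fbn1 and Col27a1 lay close to the detection limit. For GN5 rapamycin against vehicle, 5 genes were called, against 2 with no filter on dim probes, 3 by the methods' t-test after adjustment, 1 without GN5 vehicle replicates 2 and 3 together (an alternative chosen after seeing the data) and 2 to 6 with single arrays left out, the fewest without rapamycin replicate 3 and 3 without vehicle replicate 2 or rapamycin replicate 2. All probes called numbered 515, against 857 scaled to a common median, 233 with no filter, 1073 with array weights, 976 by the methods' t-test unadjusted, 156 without the 2 vehicle arrays and 164 (without vehicle replicate 2) to 934 (without vehicle replicate 1) with single arrays left out, 182, 190 and 266 of them without rapamycin replicates 2, 3 and 1. For H5D rapamycin against vehicle, 2 genes were called, against 4 when scaled to a common median, with array weights or with all 12 arrays in the fit. The methods' t-test called 5 unadjusted and 3 after adjustment, and 1 was called with no filter. With single arrays left out 0 to 2 were called, 2 only without vehicle replicate 2, and 1 of these was among the calls on all 6 arrays. All probes called numbered 57, against 164 scaled, 92 without background correction, 87 in the authors' value table, 31 with no filter, 715 with array weights, 290 with all 12 arrays, 753 by the methods' t-test unadjusted, 300 after adjustment and 0 (without rapamycin replicate 2) to 44 with single arrays left out.

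The line comparisons called 26 of 28 genes under vehicle and 25 of 27 under rapamycin, and 25 to 26 and 25 with single arrays left out. Testing only probes detected on every array removes the genes seen in 1 line. It left 11 genes tested in each comparison, of which 10 were called. Over all probes, 3799 of 6530 were then called under vehicle and 4434 of 6581 under rapamycin. For the difference of response 1 gene was called, against 4 when scaled, 3 without background correction, 2 with an offset of 50, 3 in the authors' table, 6 with array weights, 0 with detection on every array, 0 without the 2 vehicle arrays and 0 (without H5D rapamycin replicate 2) to 2 with single arrays left out. All probes called there numbered 120, against 252 scaled, 46 with detection on every array, 557 with array weights, 14 without the 2 vehicle arrays and 58 to 139 with single arrays left out. Scaling moved the median of all probes by -0.14 in GN5, 0.18 in H5D, -0.23 between the lines under rapamycin and -0.30 for the difference. Calls then split into 1 higher and 3 lower members in GN5, against 2 and 3, and over all probes into 103 higher and 754 lower in GN5, against 257 and 258, 156 and 8 in H5D, against 25 and 32, 1855 and 3504 between the lines under rapamycin, against 3160 and 2828, and 16 and 236 for the difference, against 63 and 57. The cause of these shifts was not tested.

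Replicate numbers did not pair the samples: same-numbered arrays had deviations that correlated between -0.37 and 0.30, and some arrays, but not every one, correlated best with their own number. For H5D rapamycin against vehicle, arrays with different numbers correlated between -0.48 and 0.45. The fits did not model what these arrays share. With a replicate block GN5 rapamycin kept 4 of its calls, losing Fn1 (adjusted p = 0.0503), and 330 probes were called over all, H5D rapamycin had 0 members and 15 probes called (Col15a1 adjusted p = 0.0538), and the line comparisons and the difference gave 26, 25 and 1 members. The slide was not used as a block, because the file headers name no slides.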
